A study of Mus musculus with 24 samples.

Results

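Bone marrow-derived dendritic cells (BMDCs) with the genotype label CRE were sequenced after DMXAA and without it, and the 6 libraries of that comparison, out of 24 in the series, are described here. They were taken by label alone, 3 of treatment DX (DMXAA) against 3 of treatment CT (control), numbered 1 to 3 in each. BMDCs were grown from mouse marrow with GM-CSF and IL-4 for 7 days, and the cultures were stimulated with 40 µM DMXAA (Vadimezan), a small-molecule agonist of mouse STING. The exposure time of these libraries and the vehicle of the controls were not given in the sources used here. All groups came from tamoxifen-induced mice with the floxed STING gene (Tmem173 fl/fl, C57BL/6N background). The CRE label adds Lzym-Creert2, a tamoxifen-dependent recombinase driven from the Lyz2 locus, and the WT label lacks it. Tamoxifen was given 5 times, and the stated ages at injection were 5 to 6 or 6 to 8 weeks. Recombination through this driver is limited to cells that have switched on Lyz2. The sources used here do not say which marrow donors, litters or culture days lie behind a library. P-values therefore set a change against the spread between libraries, and not between known donors. That spread was estimated from all 12 BMDC libraries, of both labels.

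STING is an endoplasmic reticulum protein that senses cyclic dinucleotides made by cGAS on cytosolic DNA. Once active it recruits the kinase TBK1, which phosphorylates IRF3 for type I interferon transcription, and it also signals to NF-kB. Secreted interferon then acts through the IFNAR receptor and JAK-STAT signalling on interferon-stimulated genes. In dendritic cells the pathway is known for linking nucleic acid sensing to IL-12 family cytokines, chemokines and costimulation of T cells.

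The 6 libraries held 15657347 to 18080027 counts and 19052 to 21672 detected genes. Values below are CPM, counts scaled to a common library size with TMM factors, in the order of numbers 1, 2 and 3. A gene was called at an adjusted p under 0.05 in edgeR's quasi-likelihood test (two-sided, Benjamini-Hochberg over 12126 genes). Fold changes are log2, DMXAA minus control, with the standard error. Tmem173 itself, the targeted gene, was at 84.8, 44.9 and 64.8 CPM in CRE control and at 75.1, 54.3 and 79.0 CPM in CRE DMXAA libraries. The WT control libraries were at 115.5, 65.6 and 81.1 CPM. The CRE and WT ranges overlapped, and counts over the whole gene do not separate the deleted part from the rest. Itgax, which encodes the dendritic cell integrin CD11c, was high in all 6 libraries (1148 to 1519 CPM), and each of 16 dendritic cell markers reached 1 CPM in at least 1 library, with Flt3 and Cd209a lowest (under 10 CPM). Markers of B cells, T and NK cells and erythroid cells summed to at most 10.997, 11.9 and 24.4 CPM in any library. Those of fibroblasts and stroma summed to 205 to 533 CPM, of basophils and mast cells to 65.3 to 475 CPM, of eosinophils to 81.2 to 209 CPM and of megakaryocytes and platelets to 46.2 to 128 CPM, and their part in the results was not tested.

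Number 2 stood apart from numbers 1 and 3 before any comparison was made. Its 2 libraries had the fewest detected genes of the CRE label (19262 and 19052), and mitochondrial genes took 2.44% and 1.96% of their counts against 1.29% to 1.66% in the other 4. WT number 1 shared these traits, with 18308 and 18326 detected genes and 2.53% and 2.31% mitochondrial counts in control and DMXAA. Across genes, log2 CPM of CRE control number 2 correlated with those of CRE control numbers 1 and 3 at 0.951 and 0.946, whereas CRE controls 1 and 3 correlated at 0.989. Genes are not independent replicates, so these coefficients only describe the libraries. In 33 genes number 2 was at least 4-fold above, and in 39 at least 4-fold below, both other numbers with and without DMXAA. The same counts were 4 and 0 for number 1 and 1 and 10 for number 3. Libraries also paired across the genotype labels. CRE control 1 was closer to WT control 3 (0.995, 49 genes 2-fold apart) than to CRE control 3 (0.989, 212 genes), and CRE control 3 was closest to WT control 2 (0.995, 40 genes). The same pairs were closest under DMXAA. These close pairs still differed by more than counting noise, with a median chi-square 2.62 to 3.07 times that of sampling alone. That cannot tell separate samples from libraries of the same culture or RNA. They were kept as separate libraries. CRE control 2 was nearest to WT control 1, but far less close (0.962, 1199 genes, 21.7 times). What the paired libraries share was not tested.

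DMXAA changed the expression of 3084 genes in CRE-labelled BMDCs. Of the genes tested, 1702 were higher (14%) and 1382 were lower (11.4%). The response was lopsided in size. Fitted changes were at least 16-fold for 213 of the genes that rose and for 6 that fell, and at least 2-fold for 1177 and 664. Of the genes called higher, 1653 did not overlap between the groups of 3 libraries, as did 1288 of those called lower. Over all tested genes 2160 (17.8%) were higher and 2053 (16.9%) lower with no overlap. The median of all tested genes was −0.01 on the log2 scale. With the replicate number as a block within each genotype label, 2636 genes were higher (21.7%) and 2545 lower (21%), and 3081 of the 3084 calls were among them.

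**Figure D1:**
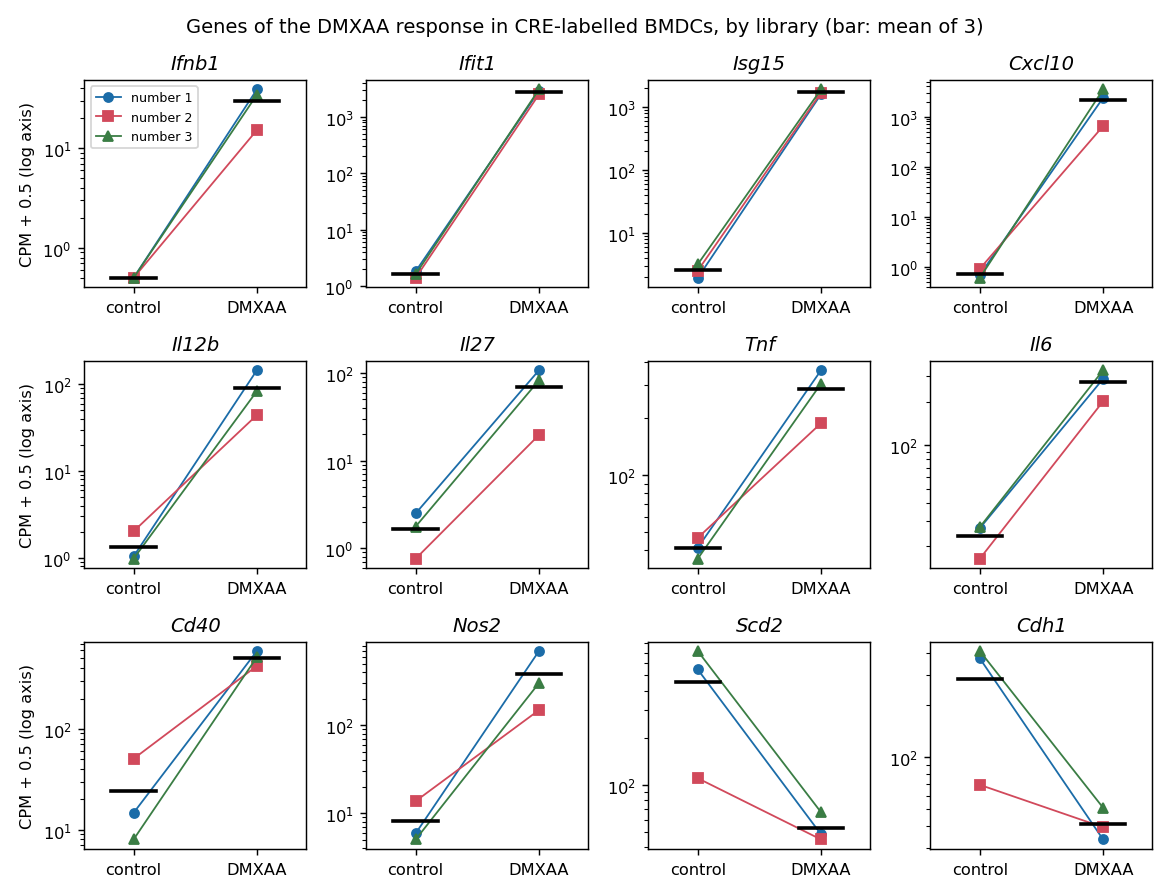
Scaled CPM plus 0.5 on a log axis for 12 genes in the 3 control and 3 DMXAA libraries of CRE-labelled BMDCs; each line joins the libraries of 1 number and black bars are means of 3. Ifit1 and Isg15 rose alike in all numbers, while number 2 (squares) ended lowest for Cxcl10, Il12b, Il27 and Nos2 and started lowest for Scd2 and Cdh1.

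Type I interferon genes went from no counts to clear detection. Ifnb1 (ENSMUSG00000048806), the interferon-beta gene, had no count in any CRE control library and reached 38.6, 14.8 and 34.1 CPM under DMXAA. Against a floor of 3 counts in each control library, the log2 rise was at least 7.56, with an adjusted p of 6.2e-05. Ifna4, an early interferon-alpha gene, also had no control count and reached 26.4, 6.55 and 13.4 CPM, a rise of at least 6.65 (adjusted p = 0.00035). In both genes number 2 was the lowest DMXAA library. Of 26 interferon and receptor genes, 13 were tested, 10 rose and 1 fell. Of those tested, 9 passed the expression filter only through DMXAA libraries, so they had to differ, and the other 13 members were below it. Interferon-alpha genes are near-identical copies and their reads may be shared. The receptor gene Ifngr1 fell by 0.98, while Ifnar1 and Ifngr2 were not called. The list's median was 7.70 as fitted and 3.27 with its 9 genes at the floor set to their bounds.

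Sequence upstream of the start sites is shown for the leading interferon and cytokine genes, to place the members with the largest rises beside the motifs known for IRF and NF-kB factors. The windows are from RefSeq (GRCm38.p6), 5′ to 3′ on the gene's strand. Each printed stretch is a part of the 250 bases upstream of the start site, around the matches, and ends before that site. Capitals mark matches, on either strand, to the core of the interferon-stimulated response element (GAAANNGAAA) or to the NF-kB consensus.
Ifnb1 (chr4:88522881-88522930, minus strand, 1 NF-kB match): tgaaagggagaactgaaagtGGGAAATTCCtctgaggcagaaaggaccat
Ifit1 (chr19:34640765-34640833, plus strand, 2 response element matches): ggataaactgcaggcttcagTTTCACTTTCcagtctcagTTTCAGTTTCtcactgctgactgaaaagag
Isg15 (chr4:156200855-156200916, minus strand, 3 overlapping response element matches): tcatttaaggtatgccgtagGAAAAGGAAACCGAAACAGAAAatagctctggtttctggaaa
Rsad2 (chr12:26456543-26456592, minus strand, 1 response element match): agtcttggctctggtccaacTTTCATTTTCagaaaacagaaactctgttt
Cxcl10 (chr5:92348963-92349122, minus strand, 1 response element match and 3 NF-kB matches, 2 of them overlapping): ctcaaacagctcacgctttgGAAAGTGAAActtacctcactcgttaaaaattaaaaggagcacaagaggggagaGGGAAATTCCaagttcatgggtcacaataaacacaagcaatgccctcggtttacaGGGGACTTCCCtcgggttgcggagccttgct
In the 250 bases upstream of each start, the response element core stood in 2.98% of all 32851 windows. By gene, it stood in 49 of the 127 matched genes that rose at least 16-fold (38.6%), in 8.60% of 1279 matched genes called higher, in 2.24% of 1114 called lower and in 2.98% of 6177 not called. The NF-kB consensus was more even, at 19.7%, 13.6%, 10.2% and 9.91% of the same sets. Il12b held neither string in its window, which says only that these letters are not there. A match is a description of letters and not of binding.

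Interferon-stimulated genes made up the largest rises. Ifit1 (ENSMUSG00000034459, chr19:34640871-34650009), which encodes a protein that binds foreign RNA caps, rose from 1.32, 0.892 and 1.12 CPM to 2880, 2520 and 3083 CPM (11.30 ± 0.25, adjusted p = 4.8e-10). Its mean FPKM in CRE control was 0.42, under the filter of 1. It was therefore tested through DMXAA libraries, which favoured a rise in advance. Isg15, a ubiquitin-like modifier, rose from 1.42, 1.99 and 2.65 CPM to 1601, 1691 and 1905 CPM (9.74 ± 0.29). Groups were far apart in both, and number 2 lay within or beside the other DMXAA libraries. Rsad2 (viperin), by contrast, rose from 3.52, 6.98 and 3.72 CPM to 9261, 4114 and 9467 CPM (10.65 ± 0.57), with number 2 under the other DMXAA libraries. The other genes of the 10 largest rises, among those with over 3 counts in every control library, were Ifit2, Cmpk2, Oasl1, Mx2, Ifi44, Rtp4 and Oasl2, all known as interferon-induced. Each of these had a mean FPKM under 1 in CRE control. The 5 largest from 3 counts or fewer in every control library were Ifit3b, Ifnb1, Cxcl11, Ifi208 and Apol9b. Mx2 and Cxcl11 are annotated as polymorphic pseudogenes, so their counts do not show a working protein. Genes with control counts on both sides of 3 are in neither ranking. Cxcl10 was such a gene (4, 8 and 2 control counts), with a fitted rise of 13.10.

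Of 48 antiviral effectors, 47 were tested and 44 were higher, with a median change of 4.95. Of the 47, 12 passed the filter only under DMXAA. Those not called included the membrane proteins Ifitm1 (−0.54) and Ifitm6 (0.35). The large interferon-inducible GTPases, which attack vacuoles of intracellular microbes, showed 16 of 17 tested members higher (6 only through DMXAA libraries) with a median of 5.09. Gbp2 rose from 71.8, 55.2 and 90.9 CPM to 1924, 1004 and 2339 CPM (4.59 ± 0.35, adjusted p = 4.2e-06). Members of the Ifit, Oas, Gbp and Tgtp families share near-identical stretches, so the split of reads within each family is uncertain.

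The signalling genes rose in part. Of 23 tested members of the STING and interferon signalling list, 15 were higher (median 1.41). Irf7, the factor that amplifies interferon-alpha transcription, rose from 5.28, 2.20 and 5.26 CPM to 861, 645 and 906 CPM (7.56 ± 0.37). Its groups were far apart, and number 2 was lowest in both. Tbk1 rose by 1.41 ± 0.16 (61.4, 68.7 and 58.8 to 186, 147 and 170 CPM). Irf3 was at 56.7, 46.2 and 41.5 against 34.4, 35.7 and 37.5 CPM, a change of −0.42 ± 0.15 that missed the threshold (adjusted p = 0.054, and 0.037 with the replicate block). Tmem173 differed by 0.10 ± 0.28 (adjusted p = 0.85).

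The IL-12 family, heterodimers that steer T cell polarisation, rose in 6 of 10 members with a median of 2.23. Of the 10, 5 passed the filter only through DMXAA libraries, Il12b, Il12a and Il23a among them, so a rise in these was favoured in advance. Il12b, the p40 chain shared by IL-12 and IL-23, rose from 0.538, 1.52 and 0.478 CPM to 145, 43.7 and 82.9 CPM (6.73 ± 0.66, adjusted p = 2.9e-05). Number 2 had the highest control and the lowest DMXAA value, and without that number the change was 7.78. Il12a, the p35 chain, stayed low at 1.83, 0.935 and 0.967 CPM against 0.391, 0.0525 and 0.425 CPM. It did not pass (2.07 ± 0.77, adjusted p = 0.070), but did so with the replicate block (adjusted p = 0.013). Il23a, the p19 chain of IL-23, reached 11.3, 0.935 and 6.90 CPM from 0.538, 0.210 and 0 CPM (4.61 ± 1.02, adjusted p = 0.0064). Il27 rose from 2.0, 0.262 and 1.27 CPM to 107, 19.1 and 82.0 CPM, lowest in number 2 (5.86 ± 0.83). Ebi3, the other chain of IL-27, rose by 1.11 ± 0.24 and lost its call without number 1 (adjusted p = 0.053). Il23r, Il27ra and Il6st were not called.

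Inflammatory cytokines rose in 14 of 16 tested members of a list of 20 (median 2.18), with 1 through DMXAA libraries alone. Tnf rose from 40.6, 45.9 and 35.5 CPM to 360, 188 and 305 CPM (2.81 ± 0.28), and Il6 from 26.1, 15.8 and 26.5 to 288, 201 and 330 CPM (3.58 ± 0.25). Il1b, which encodes the inflammasome substrate IL-1 beta, rose from 24.5, 8.03 and 19.1 to 82.2, 25.1 and 129 CPM (2.19 ± 0.55, adjusted p = 0.012), and lost its call without number 3 (adjusted p = 0.12). Number 2 was lowest under DMXAA in all of these. Il15, which sustains memory T and NK cells, ended level in all numbers at 176, 173 and 188 CPM from 5.13, 18.9 and 4.94 CPM (4.21 ± 0.50). Il10 stayed under the filter, at 0, 4 and 0 counts in control and 27, 15 and 19 counts under DMXAA.

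Among chemokines, the genes of the CXCR3 ligand group, Cxcl9, Cxcl10 and Cxcl11, changed most. Cxcl10 rose from 0.196, 0.420 and 0.106 CPM to 2375, 647 and 3480 CPM (13.10 ± 0.86, adjusted p = 1.3e-06). Cxcl9 reached 14.7, 5.05 and 18.9 CPM from 0.147, 0 and 0 CPM (adjusted p = 5.1e-05). Cxcl11, annotated as a polymorphic pseudogene, had no control count and reached 23.3, 2.56 and 37.3 CPM, a log2 rise of at least 7.09. A rise in its RNA does not show that a working chemokine was made. Number 2 was lowest under DMXAA in all 3 genes. The list of 11 CXC chemokines had 8 tested and 4 higher (median 1.78, 3 of the 8 through DMXAA libraries alone). Those 3 were Cxcl9, Cxcl10 and Cxcl11, so a rise in them was favoured in advance. Of 12 tested CC chemokines, 7 were higher (median 1.45). Ccl5, a T cell and monocyte attractant, ended level at 3998, 3899 and 3880 CPM from 172, 801 and 126 CPM (3.42 ± 0.63). Of the 7 chemokine receptors tested of 13, Ccrl2, a non-signalling chemerin-binding receptor, rose by 5.66. Ccr2, the monocyte egress receptor, was at 66.2, 9.03 and 78.7 against 9.87, 3.31 and 14.1 CPM (−2.50 ± 0.71, adjusted p = 0.023). Its groups overlapped, and the call was lost without number 1 (adjusted p = 0.15) or number 3 (adjusted p = 0.092). Cxcr2, a receptor of neutrophils and other myeloid cells, fell by 3.11 ± 0.40. Cx3cr1 was under the filter at 0 to 7 counts. The list had 1 receptor higher and 2 lower, and 2 higher and 4 lower both without number 2 and with the replicate block. Over all genes tested, 14% were higher and 11.4% lower with all numbers. These shares were 16.7% and 14.6% without number 2, and 21.7% and 21% with the block.

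**Figure D2:**
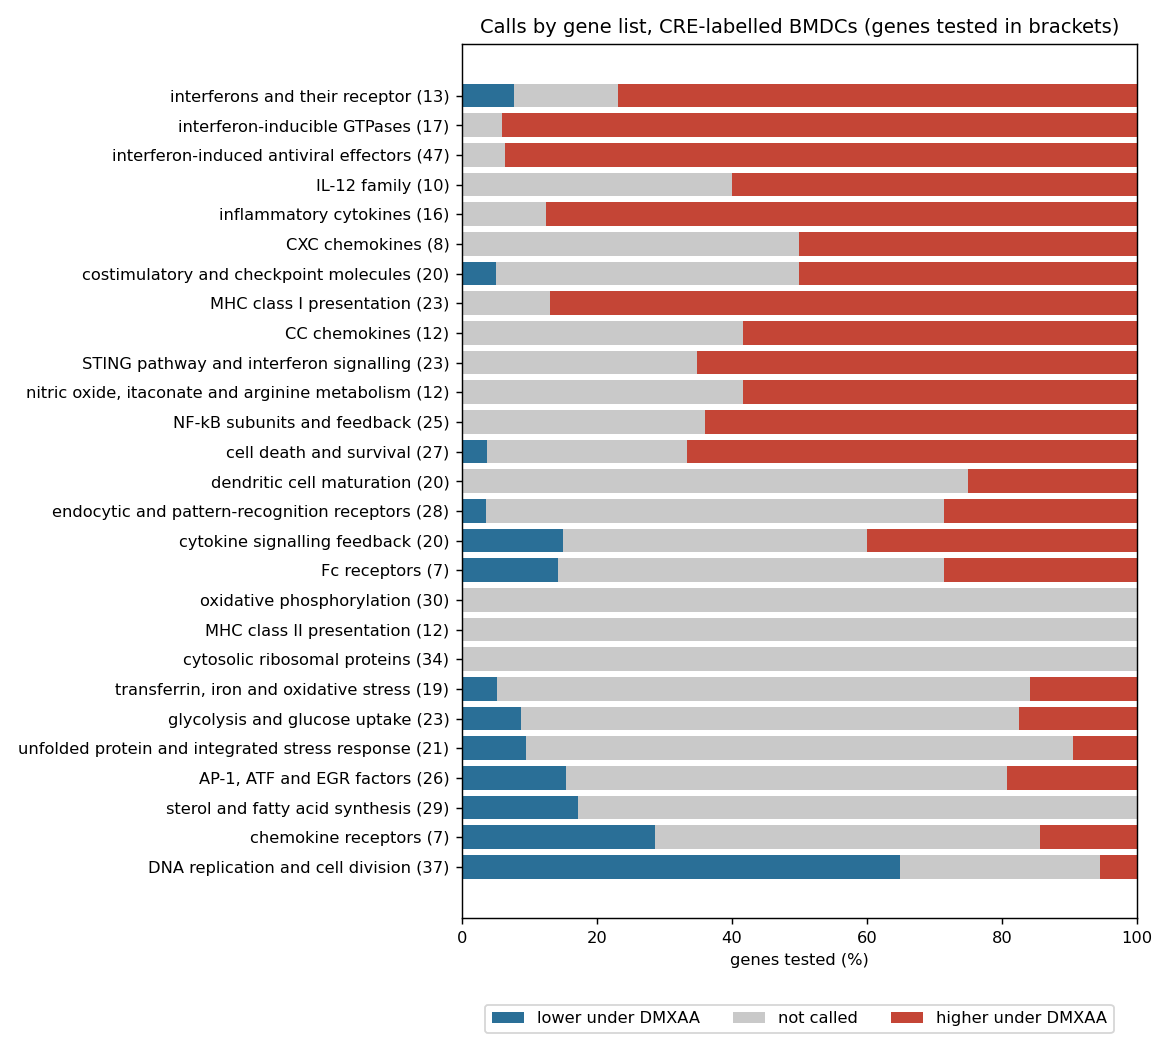
Share of tested genes (x axis, %) called higher, lower or not called under DMXAA in CRE-labelled BMDCs, for 27 gene lists ordered by median change, with the number tested in brackets. Higher calls fill most of the antiviral, GTPase, cytokine and MHC class I bars, and lower calls fill most of the DNA replication bar (24 of 37).

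Antigen presentation genes of class I rose. Of 23 class I genes, 20 were higher (median 1.63), and the 3 not called were the endoplasmic reticulum chaperones Calr (0.04), Pdia3 (0.06) and Canx (−0.05). H2-K1, a classical class I heavy chain, rose from 1078, 1395 and 1125 CPM to 2510, 2454 and 2911 CPM (1.13 ± 0.16). Tap1, a subunit of the peptide transporter, rose from 106, 57.4 and 106 to 941, 688 and 945 CPM (3.25 ± 0.24). Nlrc5, the class I transactivator, rose by 4.04 ± 0.54. By edgeR 0 of 12 tested class II genes were called (median 0.11), with 2 at an unadjusted p under 0.05, and DESeq2 called 0. The replicate block called 2 higher and 2 lower, and the fit without number 2 called 1 lower. Of all genes tested, the block called 21.7% higher and 21% lower. H2-Ab1 was at 362, 184 and 594 against 296, 173 and 695 CPM (0.03 ± 0.55), and Ciita, the class II transactivator, at 35.0, 8.08 and 43.1 against 80.9, 10.4 and 42.8 CPM (0.64 ± 0.65). Their groups overlapped, and a miss at this spread does not show that they were alike.

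Costimulatory and checkpoint genes were higher in 10 of 20 and lower in 1 (median 1.64), and in 16 and 2 with the replicate block. Of the 20, 1 passed the filter only through DMXAA libraries. Cd40, the receptor for T cell help, rose from 14.2, 50.01 and 7.49 CPM to 591, 421 and 514 CPM (4.41 ± 0.65). Cd80 rose by 1.62 ± 0.21 and Cd274, which encodes PD-L1, by 2.70 ± 0.26 (208, 282 and 219 to 1899, 1045 and 1656 CPM). Vsir, which encodes the checkpoint protein VISTA, fell by 1.32 ± 0.37. Tnfsf4, Tnfsf9, Tnfsf15 and Tnfsf18, ligands for T cell receptors of the TNF family, all rose, by 2.42 to 3.88.

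NF-kB genes, most of them inducible subunits and inhibitors, were higher in 16 of 25 (median 1.12), and 20 were higher and 2 lower with the replicate block. Nfkbia, the inhibitor that ends the signal, rose from 140, 164 and 124 CPM to 693, 462 and 636 CPM (2.06 ± 0.20), and Tnfaip3 (A20) rose by 3.08 ± 0.40. Socs1, a brake on JAK signalling, rose by 1.12 ± 0.22. In all, 8 of 20 feedback genes were higher and 3 lower (15%, against 11.4% of all genes), Socs5, Socs6 and Dusp6. Cell death genes were higher in 18 of 27 tested and lower in 1, the survival gene Bcl2. They included Mlkl (2.62), Casp4 (3.28) and Gsdmd (1.17), of necroptosis and pyroptosis, and also the survival genes Cflar (2.84 ± 0.30) and Mcl1 (0.59).

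Metabolic genes split. Nos2, the inducible nitric oxide synthase, rose from 5.38, 13.2 and 4.51 CPM to 692, 147 and 299 CPM (5.62 ± 0.73). Acod1, which makes itaconate, rose from 51.8, 98.8 and 32.5 CPM to 4078, 1719 and 3852 CPM (5.72 ± 0.49). Number 2 started highest and ended lowest in both. That list had 7 of 12 higher (median 1.32; 8 higher and 2 lower with the replicate block), with Arg1 (−1.21) and Arg2 (1.44) not called. Sterol and fatty acid synthesis had 5 of 29 tested lower (17.2%, against 11.4% of all genes, median −0.23). The counts moved to 2 higher and 9 lower without number 2 and to 6 higher and 11 lower with the replicate block. They included Scd2, Fasn, Dhcr7 and Lss. Scd2, a fatty acid desaturase, went from 546, 110 and 715 CPM to 48.0, 44.5 and 66.6 CPM (−3.11 ± 0.54). Fasn lost its call without number 3 (adjusted p = 0.13). Glycolysis (4 of 23 higher, 2 lower), the unfolded protein response (2 and 2 of 21) and iron and oxidative stress genes (3 and 1 of 19) had 26.1%, 19.0% and 21.1% of members called, near the 25.4% of all genes. With the replicate block these counts were 8 and 4, 4 and 5, and 5 and 5. Without number 2 they were 7 and 4, 2 and 2, and 5 and 3. Over all genes tested, 21.7% were higher and 21% lower with the block, and 16.7% and 14.6% without number 2. By edgeR, 0 of 30 oxidative phosphorylation and 0 of 34 cytosolic ribosomal protein genes were called, with medians of 0.12 and 0.03. At an unadjusted p under 0.05 these lists had 2 and 0 genes, and DESeq2 called 1 higher and 1 lower in the former and 0 in the latter. The replicate block called 1 higher and 1 lower in the former and 0 in the latter.

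DNA replication and cell division was the list with the most falls, 24 of 37 tested and 2 higher (median −1.09). Of the 37, 2 passed the filter only through control libraries, so a fall in them was favoured in advance. Mcm2, a subunit of the replicative helicase, fell from 40.5, 24.1 and 43.9 CPM to 10.9, 10.7 and 11.8 CPM (−1.70 ± 0.22). Cdc20, the activator of the anaphase-promoting complex, fell from 14.1, 7.98 and 16.3 CPM to 2.54, 3.68 and 2.26 CPM (−2.17 ± 0.30). The list was not uniform. Mki67 overlapped between groups (−0.11 ± 0.45, adjusted p = 0.90), and Tpx2 (1.07) and Gins2 (0.80, adjusted p = 0.074 without number 2) rose. Cdkn1a, the cell cycle inhibitor p21, which is outside the list and was chosen after its values were seen, rose from 666, 576 and 618 to 1828, 1558 and 1905 CPM (1.51 ± 0.14).

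The 10 largest falls were Gm8113, Pald1, Gapdh, Hr, Cxcr2, Scd2, Adra2a, Rab3il1, Slc7a5 and Cdh1. Cdh1, which encodes E-cadherin, went from 371, 68.8 and 409 CPM to 33.1, 39.0 and 50.6 CPM (−2.79 ± 0.55), and lost its call without number 1 (adjusted p = 0.053). Slc7a5, a large neutral amino acid transporter, went from 274, 70.0 and 287 to 28.3, 31.7 and 24.1 CPM (−2.91 ± 0.42). In both, number 2 was the lowest control library. Hr lost its call without number 1 (adjusted p = 0.080) or number 3 (adjusted p = 0.072), and Rab3il1 without number 3 (adjusted p = 0.090). Gapdh was at 20.2, 201 and 54.2 against 13.3, 5.55 and 11.7 CPM (−3.17 ± 1.03, adjusted p = 0.042). The call was lost when any DMXAA library, control 2 or control 3 was left out. Without number 2 the change was −1.57 (adjusted p = 0.30), and with the replicate block the adjusted p was 0.084. In WT-labelled cells the change was 3.10. Gapdh has many near-identical copies, so its value is uncertain.

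Across lists, number 2 usually changed least. Among the 1702 genes called higher, the median log2 ratio of DMXAA over control (CPM plus 0.5) was 1.57 in number 1, 1.01 in number 2 and 1.41 in number 3, and number 2 had the smallest change in 71.0%. Among the 1382 called lower the medians were −1.11, −0.63 and −1.06, and number 2 was smallest in 77.6%. Over all tested genes number 2 was smallest in 53.6%. For the 100 largest rises, the change of number 2 was a median 0.789 of the mean of the other numbers, and it was under that mean in 88. The calls used all 3 numbers, so these values describe them and are not a test.

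**Figure D3:**
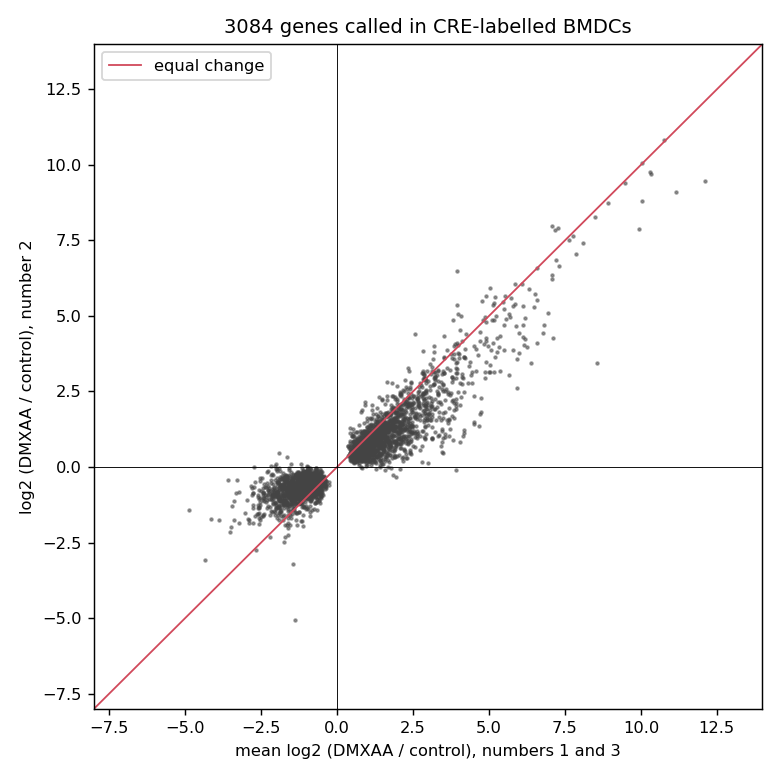
Log2 ratio of DMXAA over control in number 2 (y axis) against the mean of numbers 1 and 3 (x axis) for the 3084 genes called; the line marks equal change. Rises follow the line with most points beneath it, and falls lie mostly above it, closer to 0 in number 2.

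The lag was uneven between gene groups. Antiviral effectors had medians of 4.94, 5.07 and 4.75 in numbers 1, 2 and 3, so the median of number 2 was not behind, although number 2 had the smallest change in 21 of the 44 called. Inflammatory cytokines had 2.87, 1.37 and 2.76, costimulatory and checkpoint genes 1.87, 0.87 and 1.99, and dendritic cell maturation genes 0.89, 0.20 and 1.33. The medians of DNA replication genes were −1.23, −0.45 and −1.25. Among genes of the 100 largest rises, number 2 kept the largest share in Fam162b (1.71), Pdyn (1.41), Gm18445 (1.36), Rtp4 (1.13) and Oas3 (1.10), and the smallest in A930037H05Rik (−0.03), Hamp (0.12), Gm12188 (0.15), Gm14199 (0.20) and Kcnh4 (0.20). Several of these, such as Hamp and Gm12188, stayed under 2 CPM, where the added 0.5 weighs on the ratio. Oas3, an oligoadenylate synthetase, went from 3.62, 0.682 and 3.82 to 711, 273 and 520 CPM.

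**Figure D4:**
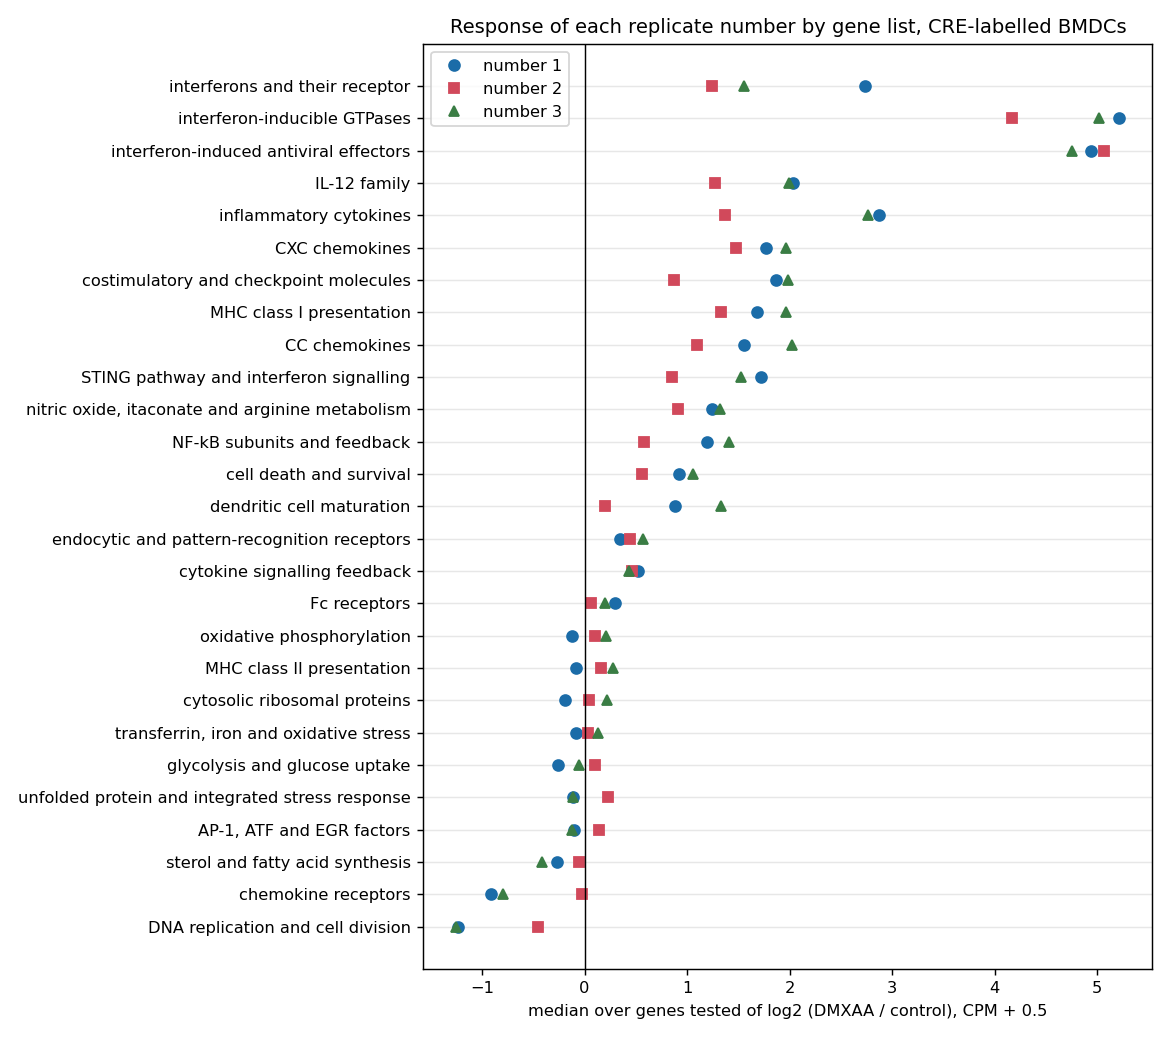
Median over tested genes of the log2 ratio of DMXAA over control (CPM plus 0.5, x axis) for numbers 1, 2 and 3 in 27 gene lists. Number 2 (squares) lies nearer to 0 for cytokines, costimulation, maturation and DNA replication, and with the other numbers for antiviral effectors.

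Maturation genes were already high in the number 2 control. Ccr7, the receptor that takes mature dendritic cells to lymph nodes, was at 333, 905 and 199 CPM in control and at 1007, 1476 and 745 CPM under DMXAA. Its change was 1.17 ± 0.50 and not called (adjusted p = 0.12), but passed without number 2 (1.72, adjusted p = 0.0084) and with the replicate block (adjusted p = 0.0027). Cd86 was at 83.1, 335 and 53.8 against 426, 610 and 349 CPM (1.55 ± 0.66, adjusted p = 0.11), and also passed without number 2 (2.50, adjusted p = 0.0087). Ccl22, a chemokine of mature dendritic cells, was at 1382, 4066 and 958 against 4505, 7000 and 4285 CPM (1.30 ± 0.49, adjusted p = 0.074), and passed without number 2 (adjusted p = 0.0032). Fscn1, an actin bundler of dendrites, was called with all numbers (2.46 ± 0.52, adjusted p = 0.0050), though not without number 1 (adjusted p = 0.060). Of the 24 maturation genes, 20 were highest in number 2 among the controls, and the matching share over all genes was not counted. Of the 20 tested, 5 were higher with all numbers (25.0%), 9 without number 2 and 11 with the replicate block. Over all genes tested, 14%, 16.7% and 21.7% were higher in these fits. Of the 20, 1 passed the filter only through DMXAA libraries.

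Markers of other cells moved with number 2. S100a8, a calprotectin chain abundant in neutrophils, was at 11.4, 139 and 9.24 CPM in control and at 7.47, 73.5 and 8.71 CPM under DMXAA. S100a9, its partner, was at 3.18, 115 and 1.70 and at 1.69, 55.4 and 0.774 CPM. Neither was called for DMXAA (−0.83 ± 1.03 and −1.05 ± 1.53). Of 21 neutrophil markers, 13 were highest and 7 lowest in number 2 in control, and 15 and 5 under DMXAA. The shares of all genes highest or lowest in number 2 were not counted. In control, number 2 lay at least 2-fold from numbers 1 and 3 in 1680 and 1723 genes. The marker counts of this paragraph therefore cannot be told from that wider shift. The median marker was at 3.18, 17.1 and 3.03 CPM in control and at 1.69, 13.5 and 1.42 CPM under DMXAA. The list was not raised as a whole. Its sum was 11742 to 22297 CPM in control and 11542 to 21950 CPM under DMXAA, lowest in number 2 both times, because Chil3, which macrophages also express, holds most of it. Without Chil3 the sums were 277, 841 and 239 CPM in control and 166, 612 and 215 CPM under DMXAA. The receptor gene Csf3r was lower in number 2 (0.472 against 5.82 and 4.57 CPM in control), and Camp stayed under 1 CPM throughout. Of 16 macrophage markers, 12 were lowest and 4 highest in number 2 in control, with medians of 25.9, 21.9 and 26.9 CPM. Their sums were 7755, 2102 and 6817 CPM, most of it Lyz2, and 1134, 894 and 1217 CPM without it. Lyz2, the locus that drives the recombinase, was at 6621, 1208 and 5600 CPM in control and at 6194, 1327 and 5638 CPM under DMXAA. Mrc1, the mannose receptor, was at 138, 31.5 and 169 and at 146, 23.7 and 143 CPM. The difference was not limited to these 2 lists. Of 9 eosinophil markers, 6 were highest and 1 lowest in number 2 in control, with medians of 1.42, 6.19 and 0.425 CPM. Basophil and mast cell markers were lowest in number 2 in control in 9 of 12 and highest in 2. Of 16 dendritic cell markers, 11 were lowest there and 4 highest. In bulk RNA, fewer cells of a type and less RNA per cell cannot be told apart, and the part of these differences in the smaller response of number 2 was not tested.

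**Figure D5:**
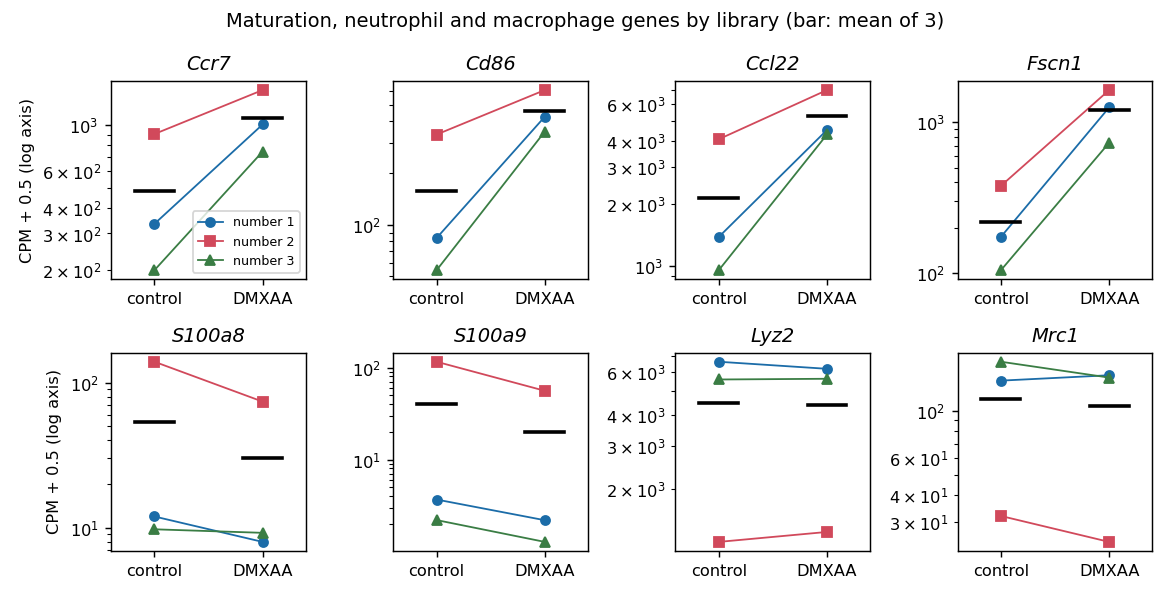
Scaled CPM plus 0.5 (log axis) of 8 genes in CRE-labelled libraries, joined by number, with means of 3 as bars. In number 2 (squares) the control already stood above the others for Ccr7, Cd86 and Ccl22, S100a8 and S100a9 were above and Lyz2 and Mrc1 below the other numbers in both treatments.

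Leaving out number 2 raised the number of calls and changed few. Without its 2 libraries, 2029 genes were higher (16.7%) and 1776 lower (14.6%). Of the 3084 calls, 2915 remained and none of those changed direction, 169 were lost, and 890 were gained, 392 higher and 498 lower. Of the 123 called genes that the naming rule picked, Gapdh and Irf4 lost the call and the other 121 kept it. The median of the genes called higher went from 1.43 to 1.59, and of those called lower from −0.97 to −1.13. Leaving out number 1 or number 3 had the opposite effect, with 1511 and 1458 calls. All 44 antiviral effectors, 20 class I genes and 14 inflammatory cytokines called higher with all numbers were also called higher without number 2.

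The response of WT-labelled BMDCs, which share no library with the CRE comparison, was set beside it to ask whether the responses differed by label. Both responses used the same estimate of the spread, and the contrast treated the close pairs across labels as separate samples. Neither Tmem173 nor the closeness of libraries separated the labels, so the labelled genotypes could not be checked here, and the comparison is one of labels. The interaction contrast (CRE minus WT) called 0 of 12126 genes (0%) in edgeR, with 60 at an unadjusted p under 0.05. Ifit1 differed by 0.19 ± 0.25 and Il12b by −1.45 ± 0.87 (6.73 in CRE, 8.18 in WT). DESeq2 called 1 gene, 1700047I17Rik2, and edgeR without the expression filter called that gene and Gapdh. At an unadjusted p under 0.05 those fits had 72 and 380 genes. A miss does not show that the responses were alike.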

How the data were processed

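Per the labels and the study's methods, poly(A) RNA was made into libraries with a NEBNext Ultra kit (strand use not given in the sources used here). The submitters' processing notes name fastp, HISAT2 2.0.5, featureCounts 1.5.0-p3 and DESeq2 1.20.0 with GRCm38. The authors deposited raw counts per gene and FPKM values (counts scaled for gene length and depth) for 54532 genes. How reads with several matches were counted is not given in the sources used here. Overlapping genes cannot be separated without strand. From these, the 12126 genes that reached FPKM 1 in 3 or more of 12 BMDC libraries were tested on the deposited counts with edgeR 4.0.16 (TMM factors, glmQLFit, 4 groups), with the 12 libraries sharing 1 estimate of the spread. The study used DESeq2 per comparison. Here DESeq2 (version 1.42.0) was an alternative, fitted to the 4 groups of all 12 libraries together and not per comparison. CPM use TMM-scaled totals, and ratios by number add 0.5 CPM. On counts simulated for CRE DMXAA against CRE control, with 200 of 12126 genes changed 4-fold, 77.5% were recovered with 4 false calls. Without number 2 the simulation gave 66.5% with 9 false calls, and with the replicate block 72% with 7. The simulated counts held no pairing by number, no number that stood apart and far fewer changed genes. They therefore do not show how the fits behave with those features.

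The biological coefficient of variation was 29.1%, and 15.6% with the replicate number as a block. Numbers pair control with DMXAA within the CRE label, since deviations from the group means of same-numbered libraries correlated at 0.547, 0.692 and 0.613 and every other pair at 0.256 or less. The pairing comes from this check, as labels give only the number.

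Named genes were a set list, the 10 largest rises and falls (called, no overlap, mean FPKM of at least 5, over 3 counts in every library of the lower group) with up to 5 at or under 3 counts, the 3 largest changes in each list, and the 5 largest and smallest shares of number 2 among 100 rises. Genes outside this rule are given as list members, or because they stand for a list or marker. The members, lists and tests were chosen with earlier results of these data known. Floors of 3 counts cover counting error only. DMXAA is given as 40 µM in the series' design text and as 40 µg/mL in the study's legends for other BMDC experiments. Some genes of these lists are counted but not reported by name here.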

Additional observations from a re-analysis of the deposited data

How the results depend on the processing

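The 3084 calls became 5181 with the replicate block (2636 higher, 2545 lower), 5289 with the block and without number 2 (2714 and 2575, chosen after seeing the data), 1853 with only the CRE-labelled libraries (661 lower) and 1841 at a log2 fold change of at least 1 (664 lower). Leaving out libraries, singly or both of a number, gave 1458 to 3805 calls, 975 to 2029 higher and 447 to 1776 lower. The lower count fell to 893 without control 1, 917 without control 3 and 903 without DMXAA 3. The difference from WT-labelled cells was 0 genes except for 1 with DESeq2 and 2 without the filter. Fewer samples in the fit carry less precision, and the cause of other shifts was not tested. No named gene changed direction while called. Of 123 called named genes, 94 kept the call in every alternative other than the fold threshold. The block also passed Ccr7, Cd86, Il12a and Irf3. It lost Gapdh. No other call among the genes the naming rule picked changed with it. The neutrophil median gene in number 2 was 5.50 times the mean of the others in control, and 3.89 times in deposited FPKM. With 3 libraries a group, genes of a few CPM were measured least precisely.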

Other observations

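Genes in which number 2 lay at least 4-fold from both other numbers in both treatments were looked at after their values were seen, and are given as values. Cxcl14, a chemokine of tissue myeloid recruitment, led those above, at 0.293, 36.2 and 0.637 CPM in control. Secreted and matrix-degrading products were among them, Mmp13 (379, 3317 and 217 CPM in control), Spp1, which encodes osteopontin (1374, 6315 and 1396 CPM), and the bone-resorbing protease gene Ctsk (24.8, 214 and 22.1 CPM). Below were the mast cell protease gene Cpa3 (170, 33.7 and 378 CPM), the nuclear noncoding RNA Neat1 (1811, 212 and 1758 CPM) and Nlrp3, the inflammasome sensor (89.6, 15.95 and 80.1 CPM).

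Gbp2b, a guanylate-binding protein, was at 27.2 CPM in control and 533 CPM under DMXAA in CRE number 2, and at most 3.61 CPM in the other 4 CRE libraries. Among WT-labelled libraries it was at 42.2 and 640 CPM in number 1, and at most 3.54 CPM in numbers 2 and 3. Cxcl14 was also high in WT number 1 (20.4 CPM in control), but S100a8 was not (8.12 CPM in control).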
